A study of Homo sapiens with 6 samples.

Results

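The genes described here are the FGF receptors FGFR1, FGFR2, FGFR3 and FGFR4, the related receptor FGFRL1, the coreceptor KLB, and the ligands FGF19, FGF21 and FGF2. They were chosen by gene symbol and make up 9 of the 19470 genes in the deposited count table. RNA was sequenced from HCCC9810 cells, an established human cholangiocarcinoma (CCA) line that the labels call wild type. Control cells received the vehicle DMSO, and treated cells received isolinderalactone (ILL), a sesquiterpene lactone, at 20 μM. Both groups were collected at 24 h, with 3 libraries each (n = 3 throughout). The labels do not say whether the libraries of a group came from separate cultures, so p-values measure the spread between these libraries, which may be technical.

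FGF receptors are transmembrane tyrosine kinases. A ligand bound together with heparan sulfate pairs the receptors, which then signal through FRS2 and the RAS and MAP kinase cascade. FGF2 is a paracrine ligand that heparan sulfate holds near the cell that secretes it. FGF19 and FGF21 are endocrine ligands that bind heparan sulfate weakly, circulate, and need the coreceptor β-Klotho, the product of KLB, to signal. In the liver, FGF19 from the intestine is known to act on FGFR4 and β-Klotho to repress bile acid synthesis, and FGF21 is known as a hormone of fasting and cell stress. FGFR2 fusions occur in intrahepatic CCA, and counts summed over a gene show neither fusions nor splice forms.

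Levels are given in counts-per-million (CPM) on library sizes adjusted by the trimmed mean of M values (TMM). Changes are log2 fold changes of ILL against control from edgeR's quasi-likelihood test, with p-values adjusted by the Benjamini-Hochberg method over the 13066 genes that passed a filter on low counts. Each library held between 34282764 and 37758569 counts, and libraries of a group differed from each other by more than counting noise. In bulk RNA, a smaller share of cells that express a gene and less of its RNA in every cell cannot be told apart. Of 8 biliary epithelial markers, 6 were tested, of which 2 rose and 4 fell, with a summed level of 8805 to 9034 CPM in controls and 8524 to 9016 CPM with ILL, and CFTR, a chloride channel of bile ducts, had 0 counts in every library. Of 6 hepatocyte markers, 1 (ALB) was higher with ILL, though not without ILL replicate 3 (adjusted p = 0.495 by edgeR), and their summed level was 29.7 to 33.6 CPM in controls and 29.3 to 47.3 CPM with ILL. Of 8 fibroblast and endothelial markers, COL1A1 and VWF (the latter named after its values were seen) were higher, and the summed level was 13.1 to 15.6 CPM in controls and 18.5 to 20.3 CPM with ILL. Of 6 blood cell markers, CD68, which many cells carry in lysosomes, rose, and their summed level went from 37.6 to 41.6 CPM in controls to 114 to 119 CPM with ILL. LYZ, with 24 to 70 counts per library, did not pass the test, HBB had 132 and 146 counts in replicate 1 of the control and ILL groups and 0 in the other 4 libraries, CD3E had at most 3 counts in any library and PTPRC at most 9. The part of such cells in the FGF results was not tested. For comparison with these marker counts, 36.2% of all genes tested rose with ILL and 36.9% fell.

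With ILL, FGF19 mRNA rose 16-fold from a very low level, and FGF21, at 0 in every control library, was detected in every treated library. FGF2, FGFR4, FGFR1 and FGFRL1 fell. FGFR2 and FGFR3 did not pass the test, and KLB was at or near 0 in all libraries. Of the 9 genes, 7 passed the filter on low counts, and FGF21 and KLB did not. Of those 7, 1 passed the test as higher with ILL, against 36.2% of all genes tested, and 4 passed as lower, against 36.9%. With the study's cutoffs for a DEG, a fold above 2 or under 0.5 beside an adjusted p under 0.05, FGF19 was the only higher gene and FGFR4 and FGF2 were the lower ones. FGF19 had passed the filter on low counts through its ILL libraries alone. The DEG cutoffs called 12.5% of all genes tested as higher and 11.4% as lower. The CPM ranges of the groups did not overlap in 5 of the 7 genes, against 75.4% of all genes tested, so these counts are no result about the FGF genes as a group. The median log2 fold change of the 7 genes was -0.18, and that of all genes tested was -0.0012.

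**Figure D1:**
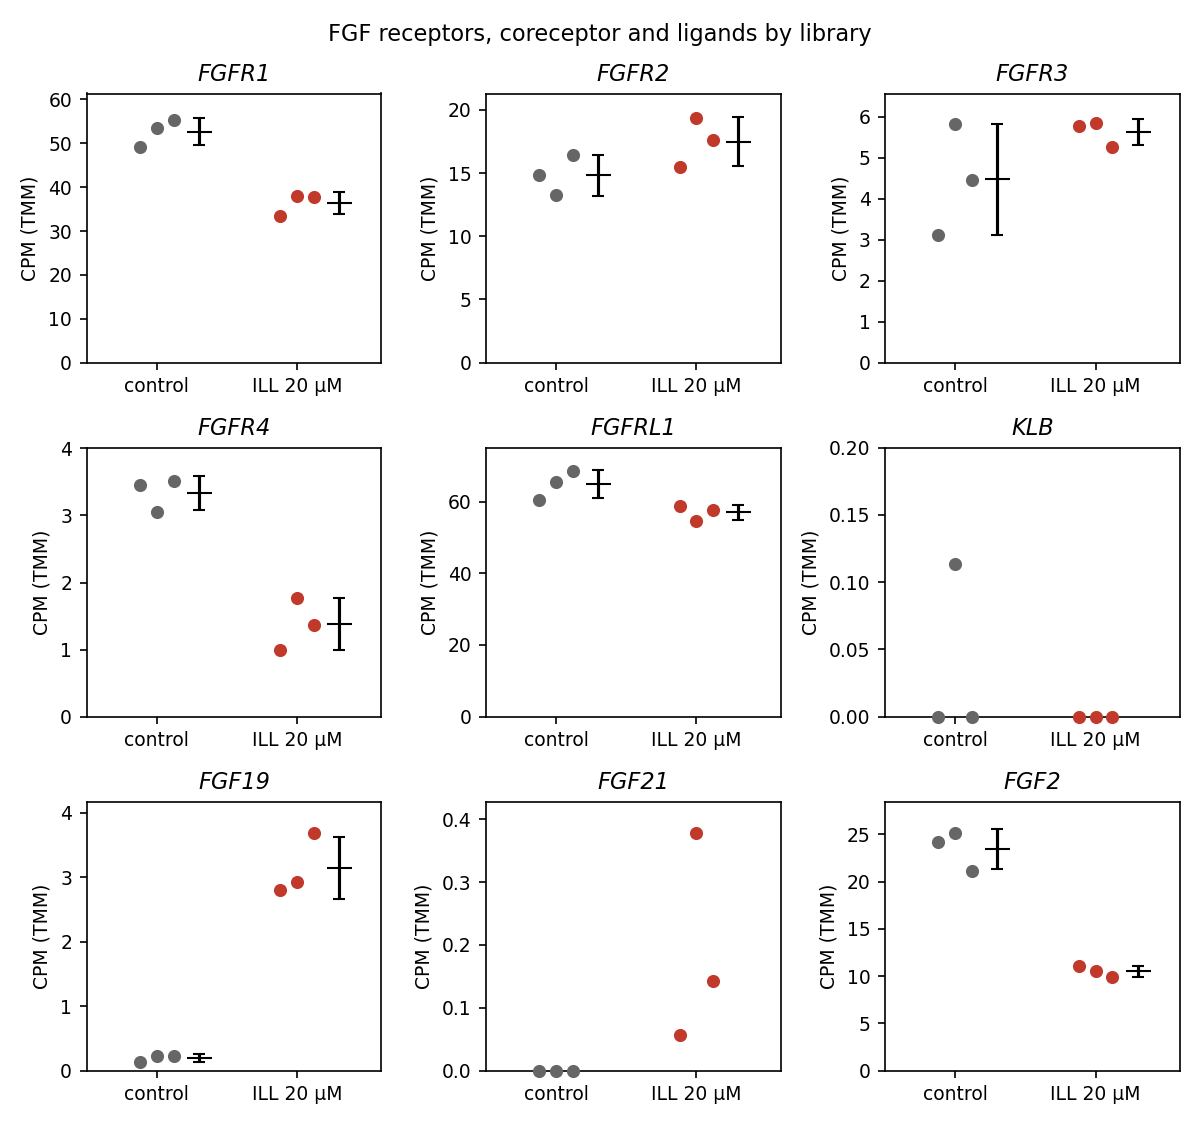
Each panel plots 1 gene in CPM on TMM library sizes, on a linear axis from 0, with 1 point per library (grey, control; red, 20 μM ILL) and, where the gene passed the filter on low counts, the mean with its SD. FGF19 and FGF21 lie higher in every ILL library, FGFR1, FGFR4, FGFRL1 and FGF2 lie lower in every ILL library, the groups overlap in FGFR2 and FGFR3, and KLB was detected in 1 library.

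Sequence is shown for FGF21 as a description. The motif was chosen after ATF4, DDIT3 and CEBPB, known to act through the C/EBP-ATF response element, were seen to be higher with ILL. ATF5, another listed regulator, was lower (log2 fold change -0.54). The part of these factors in the FGF21 change was not tested. The core of the C/EBP-ATF response element was searched as TGATGNAA on both strands of RefSeq promoters on GRCh38.p14. The windows ran from 250 bases before to 50 after each annotated start. It occurred in 1270 of 35116 promoters, or 3.62%. Promoters of 7 of the 9 genes, 12 in all, were searched, and none of them belonged to FGFR1 or FGF19. They held a match in FGF21 and in 1 of the 5 FGFR2 starts, where it began 191 bases upstream (position -191). The FGF21 match lies on the strand opposite to the gene, from -54 to -47 relative to the start, and reads TGATGCAA on that strand. The stretch around it, chr19:48755410-48755517 on the plus strand, is 108 bases long and runs from -114 to -7, with the match in capitals.
FGF21 upstream region: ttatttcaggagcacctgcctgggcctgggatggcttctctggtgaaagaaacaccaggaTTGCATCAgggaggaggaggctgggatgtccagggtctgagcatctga
A match is a run of letters and no evidence of binding, and nothing was drawn from windows without one.

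FGFR1 was the most abundant of the 4 kinase receptors. Its level was 49.2, 53.4 and 55.2 CPM in control libraries and 33.5, 38.0 and 37.7 CPM in ILL libraries. All treated libraries lay below all controls. The mean went from 52.6 ± 3.09 to 36.4 ± 2.51 CPM (SD, n = 3), a log2 fold change of -0.53 (standard error 0.0714, 95% confidence interval -0.68 to -0.38, adjusted p = 3.65e-07 by edgeR's quasi-likelihood test). This was less than the fold cutoff for a DEG.

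FGFR4, the receptor through which FGF19 acts on hepatocytes, showed the largest fall of the receptors. It stood at 3.45, 3.05 and 3.51 CPM in control libraries, or 134, 107 and 124 counts. In ILL libraries it stood at 0.9997, 1.77 and 1.37 CPM, or 35, 61 and 48 counts. The groups were well separated although the gene was weakly expressed, and its fold change is less precise than that of FGFR1. This gave a log2 fold change of -1.27 (standard error 0.287, 95% confidence interval -1.86 to -0.68, adjusted p = 0.000351 by edgeR's quasi-likelihood test), which is 2.41-fold lower. The gene lies on chromosome 5 from 177086886 to 177098144 (GENCODE release 29, GRCh38). Only 7.84% of all genes tested had a lower log2 fold change.

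FGFR2, the receptor known for gene fusions in intrahepatic CCA, was not shown to change. Its level was 14.8, 13.2 and 16.4 CPM in controls and 15.5, 19.3 and 17.6 CPM with ILL. The lowest treated library lay within the control range. The log2 fold change was 0.24 (95% confidence interval 0.01 to 0.46), with an adjusted p of 0.0551 by edgeR's quasi-likelihood test (unadjusted p of 0.0405). The adjusted p fell to 0.0455 with DESeq2's size factors and to 0.0447 with a filter of at least 10 counts in every library. It was 0.0235 without control replicate 3 and 0.0192 without ILL replicate 1, but 0.242 without control replicate 2, 0.234 without ILL replicate 2, 0.169 with library size only and 0.237 to 0.301 in the limma fits. An increase of up to 0.46 on the log2 scale therefore lies within the interval, and its call depended on these settings. FGFR2 lies on chromosome 10 from 121478334 to 121598458 on the minus strand.

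FGFR3, on chromosome 4 from 1793293 to 1808872, had a similar uncertain place. Control libraries stood at 3.12, 5.83 and 4.47 CPM and ILL libraries at 5.77, 5.84 and 5.26 CPM. Control replicate 2 reached the treated level, and the spread among controls, an SD of 1.36 CPM, exceeded the SD of 0.315 CPM among treated libraries. The log2 fold change was 0.33 (95% confidence interval -0.08 to 0.75, adjusted p = 0.142 by edgeR's quasi-likelihood test). Without control replicate 2 it was 0.57 with an adjusted p of 0.0214 from the same test, and without control replicate 1 it was 0.12 with an adjusted p of 0.597.

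FGFRL1 resembles the other receptors outside the cell but lacks the kinase domain. It was measured at 60.6, 65.6 and 68.4 CPM in controls and 58.7, 54.7 and 57.7 CPM with ILL. The highest treated library lay just below the lowest control. The log2 fold change of -0.18 (95% confidence interval -0.32 to -0.05) passed the test with an adjusted p of 0.0127 by edgeR's quasi-likelihood test, and without control replicate 3 it was -0.15 with an adjusted p of 0.0659. FGFRL1 lies on chromosome 4 from 1009936 to 1026897.

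**Figure D2:**
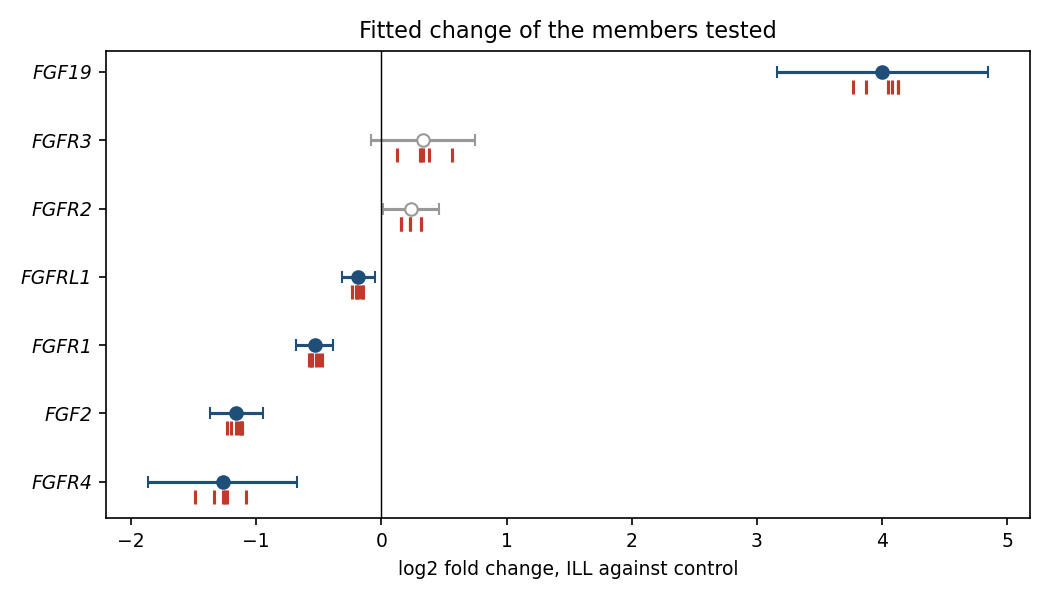
Log2 fold changes of ILL against control for the 7 genes tested, with 95% confidence intervals (filled circles, adjusted p under 0.05; open circles, not passed) and red ticks for the value with each library left out in turn. FGF19 stands alone at 4.0, FGFR4 and FGF2 lie below -1, and FGFR2 and FGFR3 lie close to 0 on the positive side.

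Levels of different receptors were compared per gene length, on the FPKM values (fragments per kilobase and per-million library counts) that the authors deposited. In controls the order was FGFRL1 (14.5 ± 0.828 FPKM), FGFR1 (7.30 ± 0.397), FGFR2 (1.84 ± 0.193), FGFR4 (1.10 ± 0.0818) and FGFR3 (1.03 ± 0.311), and the ranges of FGFR4 and FGFR3 overlapped. With ILL it was FGFRL1 (12.2 ± 0.518), FGFR1 (4.81 ± 0.307), FGFR2 (2.07 ± 0.217), FGFR3 (1.23 ± 0.0686) and FGFR4 (0.434 ± 0.119), and no neighbouring ranges overlapped (SD, n = 3). FGFR4 thus moved from a level shared with FGFR3 to the last place.

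The share of each of the 4 kinase receptors in their summed level lay in separate ranges in the groups. Their summed level was 10.6, 11.4 and 11.8 FPKM in controls and 7.88, 9.09 and 8.65 FPKM with ILL, with all treated libraries lower. FGFR1 made up 64.9%, 65.0% and 64.5% of that sum in controls and 56.5%, 54.9% and 57.6% with ILL. FGFR4 made up 10.8%, 8.81% and 9.73% in controls and 4.01%, 6.09% and 4.99% with ILL. Both shares were lower in every treated library. The share of FGFR2 was higher, with a mean of 16.4% ± 1.69 in controls and 24.2% ± 0.831 with ILL, and that of FGFR3 was 9.06% ± 2.50 and 14.5% ± 1.47 (SD, n = 3). None of these 4 shares overlapped between groups, and each gave p = 0.1 in an exact two-sided permutation test, the smallest p that 3 libraries against 3 allow. The shares sum to the whole, so they are not independent of each other. The sum was lower with ILL, and the levels of FGFR2 and FGFR3 did not pass the test. Their higher shares therefore show no rise in their levels. On counts not divided by length, the FGFR4 share changed by -2.19 percentage points in place of -4.76, and the FGFR3 share by 3.37 in place of 5.40. The level of FGFR1 was 3.99 ± 0.449 times that of FGFR2 in controls and 2.33 ± 0.121 times with ILL (FPKM ratio, SD, n = 3). FGFRL1 had a level of 1.29, 1.29 and 1.29 times the kinase receptors in controls and 1.602, 1.28 and 1.43 times with ILL, and these ranges overlapped (p = 0.4, exact two-sided permutation test).

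**Figure D3:**
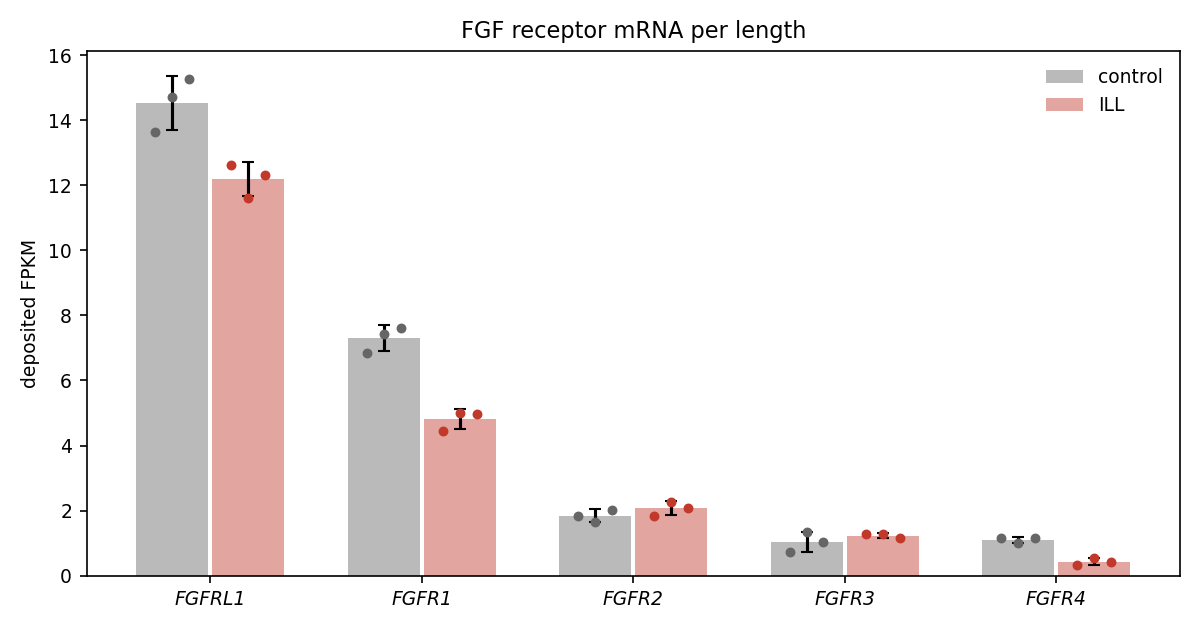
Deposited FPKM of the 5 receptors, on a linear axis from 0, with bars for the mean, error bars for the SD and 1 point per library (grey, control; red, ILL). FGFRL1 and FGFR1 lead in both groups, FGFR1 and FGFR4 are lower with ILL, and the points of FGFR2 and of FGFR3 overlap between groups.

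KLB, the coreceptor that endocrine FGFs need, was almost undetected. It had 4 counts in control replicate 2 and 0 counts in each of the other 5 libraries. The 0 counts with ILL in 106959173 counts allow up to 0.0281 CPM on unadjusted totals, against 4 of 106748036 in controls, so no change could be detected at this depth. KL, the coreceptor of FGF23, had between 0 and 9 counts per library. KLB lies on chromosome 4 from 39406853 to 39451536.

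FGF19 showed the largest log2 fold change of the 7 genes tested. Control libraries held 5, 8 and 8 counts, or 0.129, 0.228 and 0.226 CPM. ILL libraries held 98, 101 and 129 counts, or 2.80, 2.93 and 3.69 CPM. Every treated library was far above every control. Its log2 fold change was 4.0 (standard error 0.408, 95% confidence interval 3.16 to 4.85, adjusted p = 3.71e-09 by edgeR's quasi-likelihood test), the 58th highest of the 13066 genes tested. FGF19 passed the filter on low counts through its ILL libraries alone. Its place among the genes tested, and so its rank and p, rest on the group where it was high. Leaving out any 1 library gave log2 fold changes from 3.77 to 4.13. The mean level with ILL, 3.14 ± 0.480 CPM (SD, n = 3), was still low. FGF19 lies on chromosome 11 from 69698232 to 69704642 on the minus strand.

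FGF21 had 0 counts in each control library and 2, 13 and 5 counts in the ILL libraries. All treated libraries were above all controls, and most of the counts came from ILL replicate 2. Against a floor of 3 counts over the 3 control libraries together, or 0.0281 CPM on unadjusted totals, FGF21 was 6.65-fold higher with ILL. That fold was 3.49 without ILL replicate 2 and 4.30 without control replicate 1. The treated counts were taken as observed, so these folds bound the control side only. The gene did not pass the filter on low counts. With no such filter its adjusted p was 0.00444 by edgeR's quasi-likelihood test and 0.00681 from DESeq2's Wald test. FGF21 lies on chromosome 19 from 48755559 to 48758333.

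FGF2, a mitogen for many cell types and the most abundant ligand in controls, fell with ILL. Its level was 24.2, 25.1 and 21.1 CPM in controls and 11.1, 10.6 and 9.89 CPM with ILL. Every treated library lay far below every control. This gave a log2 fold change of -1.16 (standard error 0.102, 95% confidence interval -1.37 to -0.95, adjusted p = 2.59e-10 by edgeR's quasi-likelihood test). FGF2 lies on chromosome 4 from 122826708 to 122898236. NUDT6, on the opposite strand, shares 804 exonic bases with FGF2 (11.9% of those of FGF2), and the sources do not say whether reads were counted by strand. NUDT6 was also lower with ILL, at a mean of 2.87 CPM in controls and 1.05 CPM with ILL (log2 fold change -1.44, adjusted p = 0.000262 from the same test), and its part in the FGF2 counts was not tested.

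Among secreted ligands, the shares of FGF2 and FGF19 lay in separate ranges in the groups, while the ranges of the ligand total overlapped. The 18 secreted FGF genes together had 5.84 ± 0.445 FPKM in controls and 5.08 ± 0.819 FPKM with ILL (SD, n = 3), and these ranges overlapped (p = 0.3, exact two-sided permutation test). FGF2 made up 65.3%, 59.8% and 57.3% of that sum in controls and 36.7%, 30.9% and 23.9% with ILL. FGF19 made up 1.29%, 2.02% and 2.29% in controls and 34.6%, 31.95% and 33.1% with ILL. Neither share overlapped between groups, and each gave p = 0.1, the smallest possible, in the exact two-sided permutation test. The share of FGF1, a ligand for all FGF receptors, was 27.8% ± 2.97 in controls and 25.9% ± 4.10 with ILL, with overlapping ranges. In controls FGF2 (3.55 ± 0.332 FPKM) lay above FGFR2 and FGF19 (0.109 ± 0.0316 FPKM) below every kinase receptor. With ILL the ranges of FGF19 (1.68 ± 0.256 FPKM) and FGF2 (1.51 ± 0.0885 FPKM) overlapped.

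Other secreted FGFs gave little signal. Of 15 further ligand genes, 10 had at most 3 counts in every library, and only FGF1 and FGF18, a ligand known from bone growth, passed the filter on low counts. Neither passed the test, with log2 fold changes of -0.21 (adjusted p = 0.311) and 0.01 (adjusted p = 0.984) by edgeR's quasi-likelihood test. FGF8, named after its values were seen, had 4, 3 and 5 counts in controls and 0 in each ILL library. It was 4.01-fold lower against a floor of 3 counts over the ILL group, with the control counts taken as observed. Of the 4 intracellular FGF homologous factors, which are not secreted and are known to bind sodium channels, FGF11 and FGF13 were tested and both rose. Among all genes tested, 36.2% rose. FGF11 went from 8.88 ± 0.923 to 20.1 ± 1.27 CPM (log2 fold change 1.18, adjusted p = 8.64e-10 from the same test), and FGF13, also named after its values were seen, went from 0.296 to 1.30 CPM on average.

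Among 18 coreceptors, heparan sulfate proteoglycans and FGF-binding proteins, 14 were tested, of which 5 rose, 4 fell and 5 did not pass, with a median log2 fold change of 0.21. These shares are near those of all genes tested (36.2% higher and 36.9% lower) and are no result about the list. SDC1 and SDC4, syndecans that carry heparan sulfate, rose by 0.90 (adjusted p = 5.39e-13) and 0.78 (adjusted p = 1.44e-12) on the log2 scale in edgeR's quasi-likelihood test. FLRT2, a membrane protein of a family that binds FGF receptors, went from 65.5 ± 7.35 to 19.2 ± 0.597 CPM (log2 fold change -1.77, adjusted p = 5.42e-16 from the same test). CDH2, or N-cadherin, which can bind FGFR1, went from 1.98 to 0.670 CPM on average (log2 fold change -1.56, adjusted p = 0.000644 from the same test). Of 13 enzymes that build or edit heparan sulfate, 11 were tested, of which 3 rose and 5 fell, with a median of -0.04. EXT1, which extends the chain, rose by 1.15, NDST2, which sulfates it, rose by 0.62, and HS2ST1 and NDST1, also sulfotransferases, fell by 0.64 and 0.40 on the log2 scale.

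Downstream of the receptors, 16 of 24 adaptor and relay genes rose and 2 fell, with a median log2 fold change of 0.31, and all 24 were tested (36.2% of all genes tested rose and 36.9% fell). GAB2, a docking protein, and SOS2, a RAS activator, rose by 1.02 (adjusted p = 5.76e-11) and 0.94 (adjusted p = 1.19e-12) on the log2 scale in edgeR's quasi-likelihood test. PLCG1, a phospholipase that binds activated FGF receptors, fell by 0.65 on the same scale (adjusted p = 1.46e-09 in the same test). GAB2 was the only one of the 24 past the fold cutoff, at 1.02 against a cutoff of 1 on the log2 scale, and it was under it with library size only (0.948), in the limma fits (0.73 to 0.919) and without ILL replicate 1 (0.972) or control replicate 2 (0.9986).

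The 18 genes listed as feedback inhibitors and ETS targets were all tested. Most are genes that FGF signaling is known to induce or that restrain it, and the list also holds galectins. Of the 18, 7 rose, 5 fell and 6 did not pass, with a median of 0.20. This is again near the shares of all genes tested (36.2% and 36.9%). SPRY1, an inhibitor of the RAS cascade, had 190, 187 and 139 counts in controls and 25, 49 and 53 with ILL (log2 fold change -1.95, adjusted p = 1.03e-06 by edgeR's quasi-likelihood test). CBLB, a ubiquitin ligase, and DUSP5, a nuclear phosphatase of ERK, rose by 1.91 (adjusted p = 7.08e-15) and 1.36 (adjusted p = 1.07e-15) on the log2 scale in the same test. ETV1, an ETS factor, had a log2 fold change of -0.88 (adjusted p = 0.0284 from the same test), which did not pass without control replicate 1, control replicate 3 or ILL replicate 2 (adjusted p = 0.0772, 0.0643 and 0.132).

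Regulators known for FGF19 or FGF21 were mostly higher with ILL. They were listed with earlier results of these data known, so the counts below are no independent result about the list. Their part in the changes of FGF19 and FGF21 was not tested. Of 17 such genes, 14 were tested, of which 10 rose, 3 fell and 1 did not pass (36.2% and 36.9% of all genes tested rose and fell), with a median log2 fold change of 1.20 against -0.0012 over all genes tested. ATF4, the transcription factor of the integrated stress response, went from 275 ± 7.43 to 919 ± 37.6 CPM (log2 fold change 1.74, adjusted p = 7.85e-20 by edgeR's quasi-likelihood test). DDIT3, or CHOP, a partner induced in that response, went from 6.15 to 37.7 CPM on average (log2 fold change 2.62, adjusted p = 7.84e-18 from the same test). CEBPB, PPARA, NR4A1, RORA, THRB and RXRA rose by 1.497, 1.66, 1.30, 1.19, 0.61 and 0.52 on the log2 scale. PPARGC1A, a coactivator, rose by 2.61 from 1, 5 and 9 counts to 18, 42 and 30 counts. MLXIPL, which responds to glucose, rose by 1.20 (adjusted p = 0.0379 from the same test) on 10 to 39 counts per library, and it did not pass under 8 of its alternatives. HNF4A, a hepatocyte factor, fell by 1.39, and ATF5 and PPARG fell by 0.54 and 0.50. NR1H3, the oxysterol receptor LXRα, had a log2 fold change of 0.02 (adjusted p = 0.868 from the same test). NR1H4, the bile acid receptor FXR that is known to induce FGF19 in the intestine, had at most 2 counts in any library, and NR0B2 and NR1I2 had at most 3.

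Genes of bile acid synthesis and transport, which FGF19 is known to act on in liver and intestine, had few counts for the most part. Of 12, 5 had at most 3 counts in every library, among them CYP7A1 and CYP8B1 at 0 counts. Of the 6 tested, 2 rose and 1 fell, while 36.2% of all genes tested rose and 36.9% fell. Such small counts are no result about the list. ABCC3, an export pump for bile salts, went from 29.9 ± 2.47 to 74.5 ± 6.65 CPM (log2 fold change 1.32, adjusted p = 6.75e-14 by edgeR's quasi-likelihood test). The other 2, named after their values were seen, were CYP27A1, with 8, 1 and 4 counts in controls and 29, 31 and 14 with ILL, and CYP7B1, with 27, 19 and 10 counts in controls and 6, 3 and 2 with ILL.

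Splicing factors that are known to choose between the epithelial and mesenchymal exons of FGFR2 were also measured. ESRP1, which favours the epithelial exon, went from 178 ± 0.415 to 343 ± 6.07 CPM (log2 fold change 0.94, adjusted p = 8.16e-15 by edgeR's quasi-likelihood test). PTBP1 and PTBP2, which repress exons, fell by 0.91 (adjusted p = 1.78e-14) and 0.75 (adjusted p = 6.37e-05) on the log2 scale in the same test, and RBFOX2 fell by 0.16. ESRP2 had a log2 fold change of -0.08 (adjusted p = 0.322 from the same test). Exon use in FGFR2 itself was not analysed here.

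Among 27 receptor tyrosine kinases ordered by mean FPKM, the FGF receptors were in the middle or below. FGFR1 was 11th in controls and 10th with ILL, FGFR2 12th in both, FGFR3 16th and 14th, and FGFR4 15th and 17th. DDR1, a collagen receptor, was first in both groups. Of 18 other kinases tested, 7 rose and 7 fell, with a median log2 fold change of 0.08. These counts are near the shares of all genes tested (36.2% rose and 36.9% fell) and are no result about the list. AXL went from 50.2 ± 0.822 to 9.19 ± 0.319 FPKM and EGFR from 26.7 ± 0.306 to 15.7 ± 0.816 FPKM. MET went from 34.5 ± 0.898 to 54.4 ± 1.76 FPKM and ERBB3 from 7.70 ± 0.360 to 19.7 ± 1.44 FPKM (SD, n = 3). Their log2 fold changes were -2.38, -0.70, 0.73 and 1.43, and all 4 passed edgeR's quasi-likelihood test, with adjusted p between 2.14e-21 and 1.34e-11.

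The genes whose pattern over the 6 libraries was most like a member were found by Pearson's r of log2(CPM + 0.5) over 12044 genes, as a description. For FGF19 they were ATP6V0C, CD9 and CCDC92 (r = 0.9995, 0.9995 and 0.9992). For FGFR4 they were ZBTB37, ZNF696 and KLHDC4 (r = 0.9982, 0.9975 and 0.9975), and for FGF2 they were ANOS1, RFC1 and DPAGT1 (r = 0.9994, 0.9993 and 0.9993). With only 6 libraries in 2 groups such values are common: 2666 genes had r above 0.95 with FGF19, 1059 with FGFR4 and 2736 with FGF2.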

How the data were processed

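HCCC9810 cells given 20 μM ILL for 24 h were compared with vehicle by RNA-seq, 3 libraries per group, with groups and replicate numbers taken from the sample labels. The authors deposited a table of unnormalized read counts by gene symbol and a second one of FPKM, both with single libraries in columns. The submitters' processing notes name GRCh38 and DESeq2. The aligner, counting program, annotation and strand setting are not given in the sources used here. Dividing counts by gene length and library total gave back 100% of 88055 nonzero entries within 0.1%, so the deposited FPKM carry no composition adjustment.

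In R 4.3.3 with edgeR 4.0.16, filterByExpr kept 13066 of 19470 genes, which were normalized by TMM and tested with the quasi-likelihood test with Benjamini-Hochberg adjustment. Passing means an adjusted p under 0.05. DEGs also needed a fold above 2 or under 0.5, the cutoffs of the study's methods. Library totals were 34282764 to 37758569, and the biological coefficient of variation was 0.0717, so at high counts the spread between libraries sets the precision, and at low counts sampling does. Replicate pairs exceeded counting noise, at a chi-square per degree of freedom of 5.1 to 11.8 over genes. Floors cover counting error only, and only in the group without counts. Shares were tested by exact permutation with scipy 1.17.1.

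The FGF genes and the 14 gene lists were chosen with earlier results of these data known. Beside the 9 genes, the text names at most 4 genes per list, chosen among genes averaging 1 CPM or more that passed the test with the 2 highest and 2 lowest log2 fold changes, any tested regulator of FGF19 or FGF21, and splicing factors and receptor tyrosine kinases with a mean of at least 10 CPM. Other named genes are marked. Alternatives were the size factors or the Wald test of DESeq2 1.42.0, unadjusted library sizes, no filter or a minimum of 10 counts in each library, a block for the replicate number, leaving out each library, and limma (3.58.1) on log2 of FPKM plus 1 or plus 0.1. Gene positions come from GENCODE release 29 on GRCh38 and promoter sequence from RefSeq on GRCh38.p14. A few list genes are not reported here.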

Additional observations from a re-analysis of the deposited data

How the results depend on the processing

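Of the 7 FGF genes tested, FGFR1, FGFR4, FGF19 and FGF2 kept their direction and passed the test under every alternative that could fit them, and no FGF gene changed direction. The limma fits on genes with a mean of at least 1 FPKM left out FGFR4 and FGF19, and the filter of at least 10 counts in every library left out FGF19. The log2 fold change of FGFR2 was 0.25 and passed the test with DESeq2's size factors and with at least 10 counts in every library (adjusted p = 0.0455 and 0.0447, edgeR). With each library left out in turn, the log2 fold changes ranged from 0.16 to 0.32 for FGFR2, from 0.12 to 0.57 for FGFR3 and from -0.24 to -0.15 for FGFRL1. FGFR2 passed without control replicate 3 or ILL replicate 1, FGFR3 passed without control replicate 2, and FGFRL1 did not pass without control replicate 3. The ranges were -0.58 to -0.48 for FGFR1, -1.49 to -1.08 for FGFR4 and -1.23 to -1.11 for FGF2.

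The number of FGF genes that passed as higher, 1 in the main test, was 2 with DESeq2's size factors, with no filter and with DESeq2's Wald test, 0 in both limma fits on genes with a mean of at least 1 FPKM, and 1 to 2 with a library left out. FGF19 was the only higher DEG, and the number was 2 with no filter and with DESeq2's Wald test, and 0 with the filter of 10 counts in each library and in those limma fits. The number of lower DEGs, 2 in the main test, was 0 with limma on log2(FPKM + 1), with or without the filter, and 1 on log2(FPKM + 0.1), where FGFR4 was left out by the filter and FGF2 had a log2 fold change of -1.18. Adding 1 shrinks log2 fold changes at low FPKM. With it and no filter, they were -0.55 for FGFR4 and -0.85 for FGF2, and both genes still passed the test. The further FGF ligands that passed numbered 0, but 1 with no filter and with limma without a filter, and 0 to 1 with a library left out. The homologous factors that passed fell from 2 to 1, and the bile acid genes from 3 to 1, with the filter of 10 counts in each library and in the limma fits with a filter, which test fewer genes. With a library left out, the bile acid genes numbered 3 to 4.

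Of 46 other named genes, 42 kept their direction and side of the threshold in all alternatives. NR1H3, at 0.02 and not passed, was -0.0459 with library size only, -0.0355 in limma on log2(FPKM + 1) with or without the filter, -0.0413 on log2(FPKM + 0.1), and between -0.0579 and 0.124 with a library left out. The hepatocyte marker ALB did not pass with DESeq2's Wald test, in the limma fits, or without control replicate 2 or ILL replicate 3. On raw counts not divided by length, the share of FGFR1 among the kinase receptors changed by -10.1 percentage points in place of -8.46, that of FGFR4 by -2.19 in place of -4.76, and that of FGFR3 by 3.37 in place of 5.40. The fold of FGF21 against the control floor, an alternative added after the data were seen, ranged from 3.49 to 8.98 with a library left out. The median over all genes, -0.0012 on the log2 scale, was -0.07 when libraries were scaled by their size alone.

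The replicate numbers were not taken to pair the samples, since same-numbered libraries deviated with correlations of 0.02, -0.01 and -0.05 over 12051 genes, although HBB was detected only in replicate 1 of both groups. With the replicate number as a block, the log2 fold changes were -0.53 for FGFR1, 0.24 for FGFR2, 0.37 for FGFR3, -1.29 for FGFR4, -0.18 for FGFRL1, 4.01 for FGF19 and -1.16 for FGF2, and no call among these 7 changed. Depth limits FGF21, KLB and most other FGF ligands, which had too few counts for a fold change with a useful error.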

Other observations

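FLRT1, a membrane protein of the same family as FLRT2 that was too low for the rule on named genes, had 1 count in each control library and 51, 42 and 27 counts with ILL. Its sum over the group went from 3 to 120 counts, while FLRT2 went from 7153 to 2008 counts and FLRT3 from 30 to 61 counts, for which the adjusted p was 0.0786 in edgeR's quasi-likelihood test.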
